A study of Zea mays with 18 samples.

Results

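This account covers 76 genes of the maize leaf photosynthetic apparatus, those whose name or description carries the words photosystem, chlorophyll a-b binding, light harvesting, plastocyanin or oxygen-evolving. Members lie outside the plastid and mitochondrial chromosomes of the gene table. They reached 1 FPKM (fragments per kilobase of gene, scaled by a deposited factor for each library) in at least 3 of the 18 libraries. Of 95 genes that matched the words, 76 passed this level and 19 did not. Of those 19, 11 had no read in any library. The 76 were among 50118 genes in the table and 23141 genes tested. By role they were 6 small or accessory subunits of photosystem II, 6 subunits of its oxygen-evolving complex, 18 of its antenna proteins, 15 subunits of photosystem I and 9 of its antenna proteins. The others were 1 plastocyanin, 13 assembly and repair factors, and 8 genes described as subunits that the plastid genome encodes (psbA, psbB, psbC, psbD, psaA and psaB). The word nuclear is open to question for those 8, which lay on unplaced contigs or nuclear chromosomes, so they are called plastid-type copies here and are kept apart in the counts. The members nearest the level requirement were the Psb28 copy Zm00001d042172, with 1.07 FPKM in its library of rank 3, and an unannotated HCF136-like model, with 1.11 FPKM there. The nearest genes left out were a psbC-like antisense RNA on chromosome 5, with 0.591 FPKM, and an antenna gene, Zm00001d006592, with 0.473 FPKM.

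The study set leaves of a zmzfp69 mutant, named for a zinc finger transcription factor, beside leaves of the inbred line B73. Seedlings at the stage of 3 leaves, raised at 25 °C with 16 h of light a day, were placed at 4 °C. Leaves were taken for mutant plants at 0, 24 and 48 h and for B73 plants at 0, 24 and 48 h. Each of these 6 groups had 3 libraries of polyadenylated RNA, labelled as biological replicates of 50 seedlings each. The titles call the line a mutant in the B73 background and other label fields call it a knock down. The labels give neither its zygosity nor the number of independent lines. Groups follow the titles, which the library names match, but the description of 4 mutant libraries, replicates 2 and 3 at 24 h and at 48 h, names 0 h. The main counts are therefore also given without those 4 libraries, in a fit added after the values were seen. In it the single mutant library left at 24 h and at 48 h is assumed to vary like the other groups. All libraries, those at 0 h included, carry the treatment label 4 °C. The growth protocol also describes a return to 25 °C after the cold, which no label ties to a library.

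Photosystem II splits water with its oxygen-evolving complex and passes the electrons through the cytochrome b6f complex and plastocyanin to photosystem I. Chlorophyll-binding antenna proteins, the Lhcb proteins around photosystem II and the Lhca proteins beside photosystem I, feed light energy to both, while the reaction centres themselves are made in the chloroplast from its own genes. In C4 leaves such as those of maize, mesophyll cells hold most of photosystem II, and bundle sheath cells rely largely on photosystem I.

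The libraries held 14795794 to 19070464 recovered reads. Each value was a whole multiple of 1 read in every library, within a tolerance of 0.01 reads. The leaf label was checked with pyruvate, phosphate dikinase, phosphoenolpyruvate carboxylase, NADP-malic enzyme and the Rubisco small subunit. The lowest value of any of them in any library was 810.3 FPKM. No gene in the table is named or described as zfp69, so the targeted gene was not checked. Scaling by library totals instead of the deposited scaling moved the median of all genes by -0.63 (log2) in the mutant at 48 h against 0 h, where it was -0.032 as deposited. The shift was -0.44 in B73, where the median was -0.027 as deposited. The total used by the deposited scaling, as a ratio to recovered reads, averaged 1.27, 1.13 and 0.704 in the mutant at 0, 24 and 48 h. In B73 it averaged 1.31, 1.01 and 0.887. On average the same share of reads thus gives more FPKM at 48 h than at 0 h. The levels, sums and changes below are relative to the deposited scaling.

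The genes for the photosystems were among the most abundant transcripts of these leaves, and in several groups nearly all of them were highest or lowest in the same library. Of the members, 25 averaged 1000 FPKM or more over the 18 libraries, 8 averaged under 10 FPKM, and the means ran from 0.309 to 4230 FPKM. PsbR, a small subunit of photosystem II (Zm00001d049387), had the highest mean, ahead of plastocyanin (Zm00001d035859). The 76 members summed to 64531, 30866 and 66239 FPKM in the mutant at 0 h, 51223, 36387 and 64768 FPKM at 24 h and 53624, 75925 and 50552 FPKM at 48 h. In B73 they summed to 25693, 39674 and 124660.0 FPKM at 0 h, 18540.0, 75953 and 92631 FPKM at 24 h and 50852, 56301 and 51427 FPKM at 48 h. The spread between B73 libraries at 0 and 24 h was therefore wider than any difference between groups. As shares of recovered reads these sums were between 1.89% and 11.6%. The share averaged 6.29, 4.76 and 3.60% in the mutant at 0, 24 and 48 h, where the sum averaged 53879, 50793 and 60034 FPKM. In B73 the share averaged 6.68, 5.23 and 4.09%, where the sum averaged 63342, 62375 and 52860 FPKM. The mean share was thus lower at 48 h than at 0 h in both lines, with overlapping ranges, while the mean FPKM sum of the mutant was not lower.

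**Figure D1:**
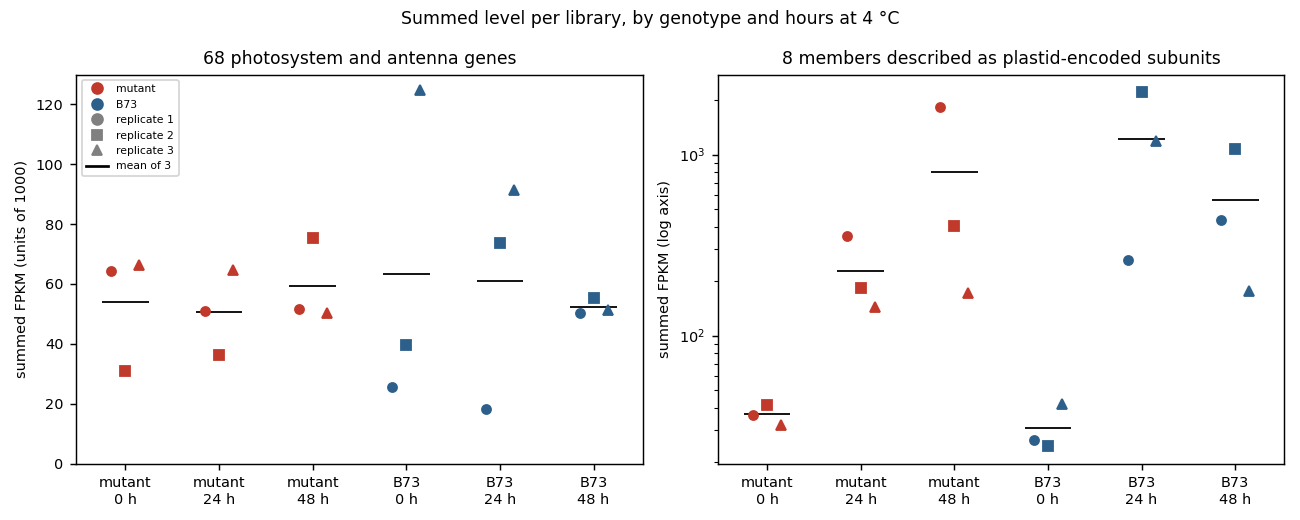
Summed FPKM per library for the 68 photosystem and antenna genes (left, in units of 1000 FPKM) and for the 8 plastid-type copies (right, log axis), by genotype and hours at 4 °C, with the mean of 3 libraries as a line. The 68 genes spread most widely among the B73 libraries at 0 h and 24 h, and the 8 copies lie at 41.9 FPKM or less in all 6 libraries at 0 h and at 144 FPKM or more in the other 12.

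Leaving the 8 copies aside, B73 replicate 3 held the highest value of its 0 h group for 67 of 68 members and replicate 1 the lowest for 63 of 68, where 41.5% and 34.8% of all genes had those libraries as their highest and lowest. Replicate 1 was the lowest B73 library at 24 h for 67 of 68 members, beside 43.4% of all genes. Replicate 2 was the lowest mutant library at 0 h for 65 of 68, beside 36.5% of all genes. At 24 h replicate 2 was the lowest mutant library for 51 of 68, beside 38.9% of all genes. At 48 h mutant replicate 2 was the highest for 56 of 68, beside 29.7% of all genes. In B73 at 48 h the members were divided between the libraries. Replicates 1, 2 and 3 were the highest for 16, 33 and 19 members and the lowest for 26, 23 and 19. Of all genes, 34.7, 36.3 and 29.0% were highest and 32.8, 36.6 and 30.6% lowest in those libraries. The median SD within a group was taken on the log2(FPKM + 1) scale. For all members, copies included, it was 0.664 in the mutant at 0 h, 0.528 at 24 h and 0.53 at 48 h. It was 1.16, 1.44 and 0.425 for them in B73 at the same times. Without the copies it was 0.692, 0.513 and 0.504 in the mutant and 1.26, 1.43 and 0.374 in B73. Over all genes tested it was 0.292, 0.447 and 0.404 in the mutant and 0.295, 0.365 and 0.463 in B73. In B73 at 48 h the median SD of the members was thus no higher than that of all genes. The photosystem II antenna members still summed to 3263, 14732 and 4201 FPKM in those 3 libraries. The source of the common movement in the other groups was not tested. In bulk leaf RNA, fewer cells of a type and less RNA per cell cannot be told apart.

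**Figure D2:**
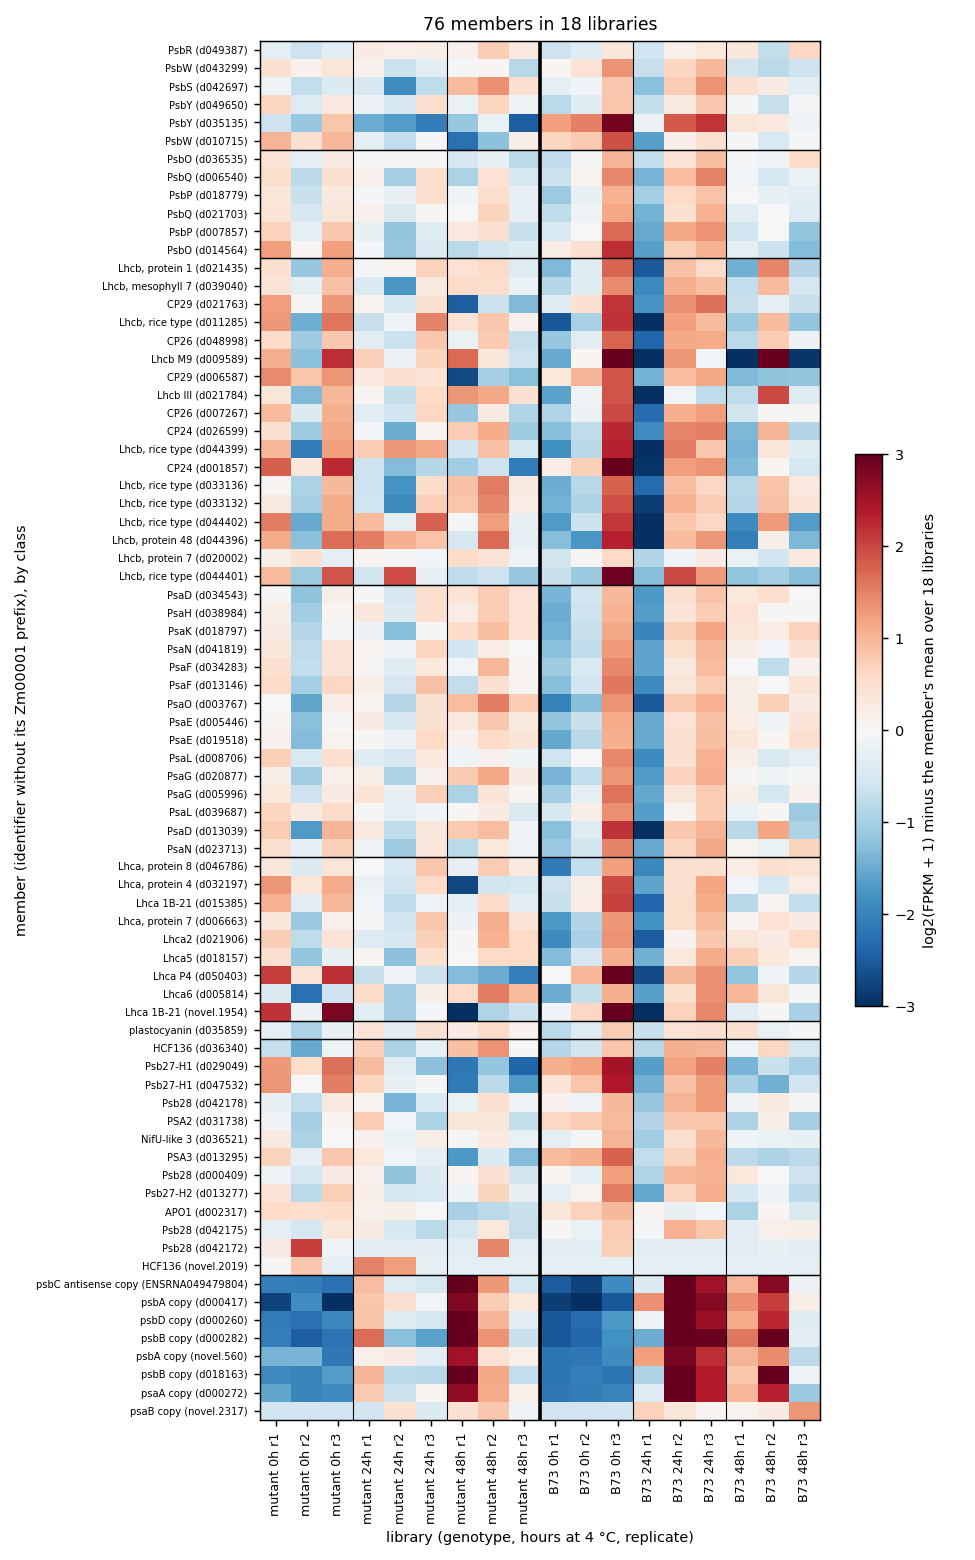
Level of each of the 76 members in each library as log2(FPKM + 1) minus the mean of that member over 18 libraries, with members grouped by class down the page and libraries by genotype, hours at 4 °C and replicate across it. Whole columns are dark in the same direction in B73 at 0 h (replicate 3, high) and 24 h (replicate 1, low), and the 8 plastid-type copies at the bottom are low in all 6 libraries at 0 h.

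After 48 h at 4 °C a few named members fell. In the mutant they included the abundant antenna genes Zm00001d021763 (CP29) and Zm00001d032197 (Lhca protein 4). No photosystem I subunit and no subunit of the oxygen-evolving complex passed the test in either line. In the mutant at 48 h against 0 h, 19 of the 76 members passed (limma on log2(FPKM + 1), adjusted p under 0.05 over all genes tested), where 36.5% of all genes passed. Of the 19, 10 were lower and 9 higher, beside 4164 lower and 4274 higher among all genes. In B73 12 members passed, where 23.2% of all genes did. Of the 12, 5 were lower and 7 higher, beside 2431 lower and 2943 higher among all genes. Without the plastid-type copies these counts were 10 lower and 1 higher of 68 in the mutant and 5 lower and 0 higher in B73. The median log2 fold change of those 68 was -0.056 in the mutant and -0.28 in B73, beside -0.032 and -0.027 for all genes. Scaled by library totals, 5 members were higher and 17 lower in the mutant and 7 higher and 13 lower in B73. The counts rested on single libraries in part. The mutant count of 19 was 10 without its 0 h replicate 1, 9 without 0 h replicate 3 and 8 without 48 h replicate 1. The B73 count of 12 was 7 without 0 h replicate 1 and 6 without 0 h replicate 2, without 0 h replicate 3 or without 48 h replicate 1. Without the 4 mutant libraries whose description names 0 h, the mutant count was 13 (7 higher, 6 lower). The mutant calls lost there were those of Psb27-H1 Zm00001d047532, CP29 Zm00001d021763, CP24 Zm00001d001857, the Lhca gene Zm00001d050403, Lhca6 and 1 plastid-type copy. Their limma adjusted p ran from 0.0565 to 0.328.

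**Figure D3:**
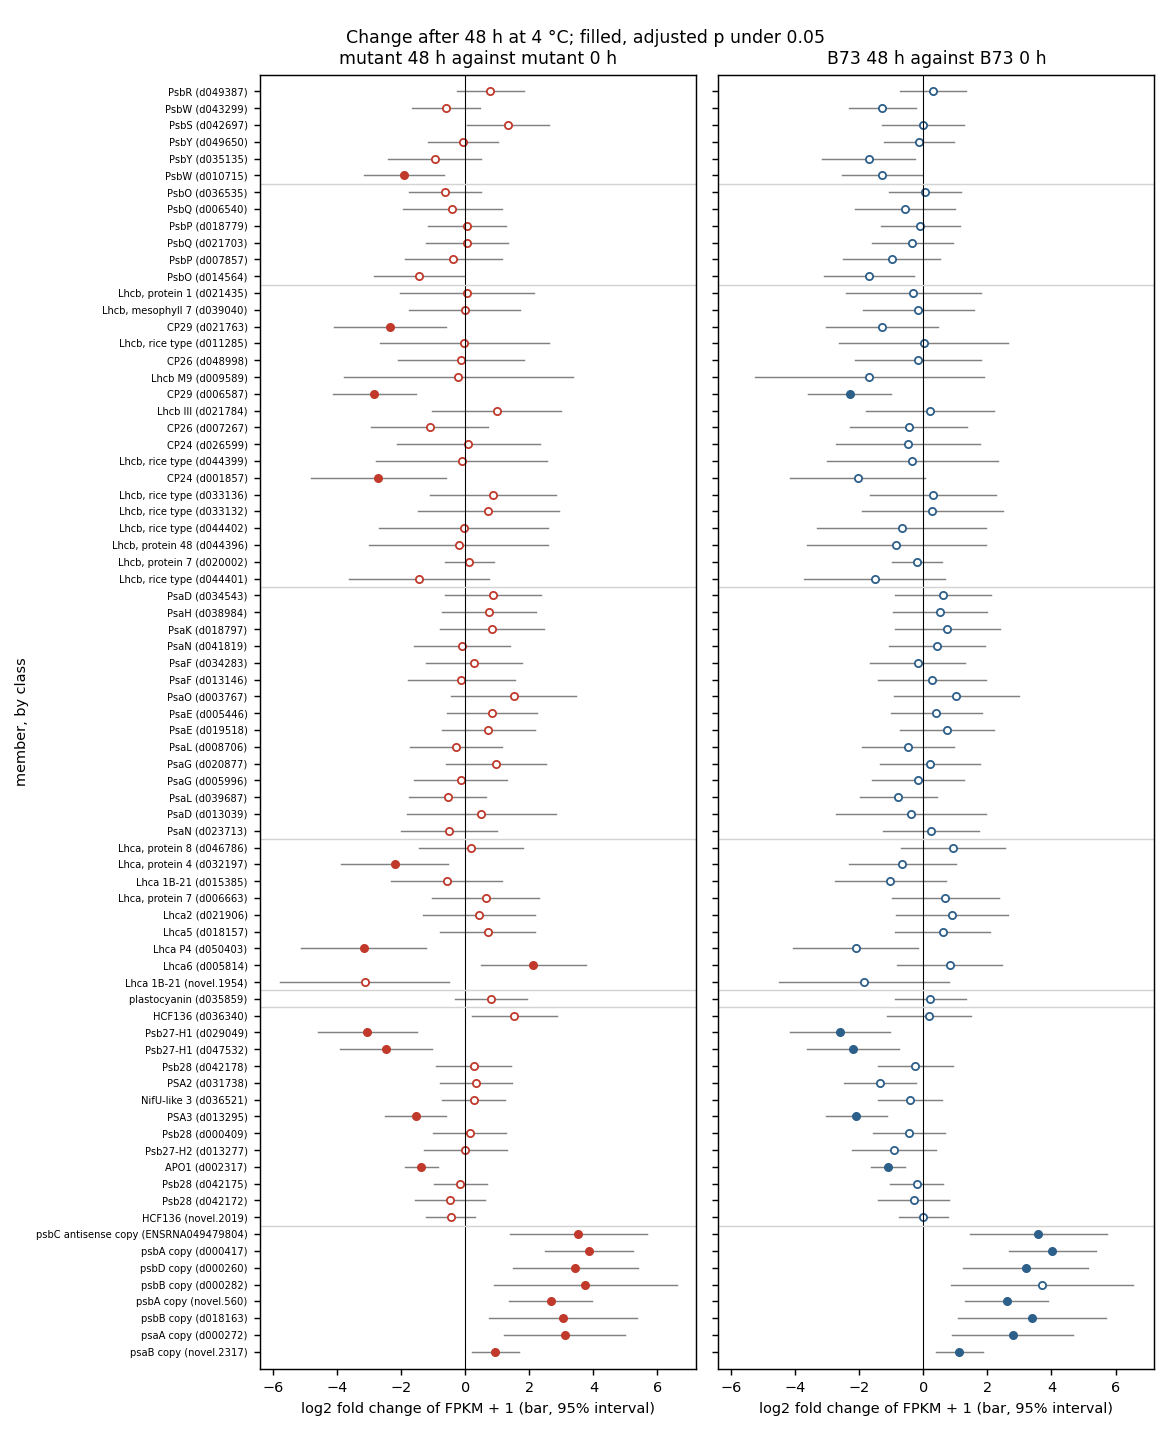
Log2 fold change of FPKM + 1 after 48 h at 4 °C against 0 h for each member, with 95% intervals, in the mutant (left) and in B73 (right), grouped by class. Filled points passed the adjusted threshold. Outside the copies at the foot these are 11 in the mutant and 5 in B73, and all but Lhca6 lie below 0.

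The members that fell in both genotypes numbered 5, and 4 of them are factors for assembly or repair rather than parts of the finished photosystems. Psb27-H1 is a lumenal protein that binds photosystem II while it is being assembled or repaired, and maize has 2 genes for it here. Zm00001d029049 (chromosome 1, 56106212 to 56106724) had 25.7, 51.6 and 21.5 FPKM in mutant leaves at 48 h, against 288, 169 and 370.0 FPKM at 0 h. In B73 it had 43.5, 73.6 and 59.5 FPKM at 48 h, against 249, 273 and 668 FPKM at 0 h. The 48 h libraries lay below every 0 h library in both lines. The log2 fold change was -3.06 ± 0.73 (SE, adjusted p = 0.00479) in the mutant and -2.61 ± 0.73 (SE, adjusted p = 0.0185) in B73 (limma). The B73 call was lost without 0 h replicate 3 (limma adjusted p = 0.0719) and without 48 h replicate 1 (limma adjusted p = 0.0707).

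The other Psb27-H1 gene, Zm00001d047532 on chromosome 9, moved the same way. It had 18.7, 49.0 and 25.2 FPKM in the mutant at 48 h, against 214, 83.3 and 246 FPKM at 0 h. The B73 leaves had 42.3, 30.6 and 56.8 FPKM at 48 h, against 113, 151 and 447 FPKM at 0 h. Its log2 fold change was -2.48 ± 0.68 (SE, adjusted p = 0.0102) in the mutant and -2.20 ± 0.68 (SE, adjusted p = 0.0281) in B73 (limma). Its B73 call was lost without 0 h replicate 2 or 3 and without 48 h replicate 1 or 2, with limma adjusted p from 0.051 to 0.117. A related gene for the luminal protein Psb27-H2, Zm00001d013277, had a log2 fold change of -0.0047 ± 0.61 (SE, adjusted p = 0.997) in the mutant and -0.92 ± 0.61 (SE, adjusted p = 0.292) in B73 (limma), and passed in neither.

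PSA3, a factor that maize needs to accumulate photosystem I, is encoded by Zm00001d013295 on chromosome 5. It had 5.38, 14.9 and 7.57 FPKM in the mutant at 48 h, against 32.9, 16.4 and 36.0 FPKM at 0 h. In B73 leaves there were 11.2, 10.1 and 11.3 FPKM at 48 h, against 39.7, 43.4 and 71.9 FPKM at 0 h. The 3 B73 libraries at 48 h were close together and well below the lowest 0 h library. The log2 fold change was -1.55 ± 0.45 (SE, adjusted p = 0.0144) in the mutant and -2.10 ± 0.45 (SE, adjusted p = 0.00436) in B73 (limma). The mutant call was lost without 0 h replicate 1 or 3 and without 48 h replicate 1, with limma adjusted p from 0.0554 to 0.0666.

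APO1, known in Arabidopsis as a chloroplast RNA-binding protein needed for photosystem I, had low levels throughout. Its gene Zm00001d002317 (chromosome 2) held 0.585, 0.783 and 0.963 FPKM in the mutant at 48 h, against 3.74, 3.44 and 3.53 FPKM at 0 h. B73 held 0.618, 2.26 and 1.31 FPKM at 48 h, against 3.01, 4.00 and 5.13 FPKM at 0 h. The log2 fold change was -1.37 ± 0.25 (SE, adjusted p = 0.000721) in the mutant and -1.11 ± 0.25 (SE, adjusted p = 0.00535) in B73 (limma), and on the FPKM + 1 scale the change of such a low gene is understated. In a fit of the 6 B73 libraries alone its adjusted p was 0.0715 (limma).

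The other assembly factors did not pass the test at 48 h in either genotype. HCF136, which is needed for photosystem II assembly in Arabidopsis (Zm00001d036340), had 323, 438 and 168 FPKM in the mutant at 48 h, against 107, 59.1 and 153 FPKM at 0 h. That is a log2 fold change of 1.53 ± 0.62 (SE, adjusted p = 0.0661) (limma). In B73 its log2 fold change was 0.18 ± 0.62 (SE, adjusted p = 0.866) (limma). PSA2, another photosystem I factor (Zm00001d031738), had a log2 fold change of 0.34 ± 0.53 (SE, adjusted p = 0.642) in the mutant and -1.35 ± 0.53 (SE, adjusted p = 0.0763) in B73 (limma). Of 13 assembly and repair members, 4 fell and 9 did not pass in each genotype. Beside them, 4164 of all 23141 genes tested fell in the mutant and 2431 in B73.

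The remaining member that fell in both genotypes is an antenna gene. CP29 (Lhcb4) is a minor antenna protein that links the photosystem II core to the outer trimers, and 2 genes carried its description. Zm00001d006587 (chromosome 2) had 44.6, 146 and 124 FPKM in the mutant at 48 h, against 796, 528 and 736 FPKM at 0 h. The B73 leaves had 117, 128 and 132 FPKM at 48 h, against 366, 595 and 1088 FPKM at 0 h. Its log2 fold change was -2.84 ± 0.61 (SE, adjusted p = 0.00232) in the mutant and -2.30 ± 0.61 (SE, adjusted p = 0.014) in B73 (limma). Without B73 0 h replicate 3 the B73 adjusted p was 0.0565. The more abundant copy, Zm00001d021763 on chromosome 7, had 161, 566 and 355 FPKM in the mutant at 48 h, against 2135, 916 and 2201 FPKM at 0 h, with a log2 fold change of -2.35 ± 0.83 (SE, adjusted p = 0.0367) (limma). In B73 it had 548, 739 and 557 FPKM at 48 h, against 682, 1215 and 3969.9 FPKM at 0 h, with a log2 fold change of -1.29 ± 0.83 (SE, adjusted p = 0.275) (limma). These B73 groups overlapped and did not pass. The mutant call of this copy was lost without filtering, without 0 h replicate 1 or 3 and without 48 h replicate 1 or 3, with limma adjusted p from 0.0681 to 0.14.

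CP24 (Lhcb6) is the minor antenna protein found in land plants beside CP29. Its less abundant gene, Zm00001d001857 on chromosome 2, had 21.8, 29.5 and 9.88 FPKM in the mutant at 48 h, against 163, 58.0 and 219.5 FPKM at 0 h. That is a log2 fold change of -2.71 ± 0.99 (SE, adjusted p = 0.0436) (limma). It had 17.7, 47.8 and 31.6 FPKM in B73 at 48 h, against 54.2, 76.2 and 494 FPKM at 0 h, and its log2 fold change there was -2.05 ± 0.99 (SE, adjusted p = 0.147) (limma). The mutant call was lost without filtering, with limma-voom on recovered reads and without any of 5 of the 6 mutant libraries. The more abundant copy, Zm00001d026599, had a log2 fold change of 0.10 ± 1.06 (SE, adjusted p = 0.951) in the mutant and -0.48 ± 1.06 (SE, adjusted p = 0.781) in B73 (limma).

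The main Lhcb genes, whose proteins form the outer antenna trimers, did not pass at 48 h in either genotype. The most abundant, Zm00001d021435 (chlorophyll a-b binding protein 1), had 2181, 2395 and 1229 FPKM in the mutant at 48 h, against 2283, 727 and 3439.9 FPKM at 0 h. In B73 leaves there were 586, 4436 and 870.5 FPKM at 48 h, against 643, 1245 and 5425 FPKM at 0 h. Both pairs of groups overlapped. The next, Zm00001d039040, named for the chlorophyll a-b binding protein of maize mesophyll, had a log2 fold change of -0.021 ± 0.82 (SE, adjusted p = 0.988) in the mutant and -0.16 ± 0.82 (SE, adjusted p = 0.914) in B73 (limma). Some Lhcb genes spread widely within a group: Zm00001d009589 (protein M9) had 17.8, 2406 and 33.2 FPKM in the 3 B73 libraries at 48 h. Antenna genes lay close together in 2 places. These were Zm00001d044396, Zm00001d044399, Zm00001d044401 and Zm00001d044402 on chromosome 3 between 227100368 and 227280658, and Zm00001d033132 and Zm00001d033136 on chromosome 1 between 251722257 and 251755894. The chromosome 1 pair ranged from 5.33 to 174 FPKM and from 9.34 to 173 FPKM over the 18 libraries. Reads of such close copies can be split between them, so each is uncertain by itself. Of 18 photosystem II antenna members, 3 fell in the mutant and 1 in B73. Among all 23141 genes tested, 4164 fell in the mutant and 2431 in B73.

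Among the antenna proteins of photosystem I the members diverged. An Lhca gene described as chlorophyll a-b binding protein P4, Zm00001d050403 on chromosome 4, had 77.8, 68.6 and 45.9 FPKM in the mutant at 48 h, against 817, 257 and 898 FPKM at 0 h. That is a log2 fold change of -3.18 ± 0.92 (SE, adjusted p = 0.0139) (limma). In B73 it had 85.3, 176 and 106 FPKM at 48 h, against 192, 386 and 1752 FPKM at 0 h, and its log2 fold change was -2.11 ± 0.92 (SE, adjusted p = 0.107) (limma). The groups did not overlap in either line, and the test passed in the mutant. Without mutant 0 h replicate 1 or replicate 3 the mutant call was lost.

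Zm00001d032197, described as Lhca protein 4, had 154, 705 and 708 FPKM in the mutant at 48 h, against 2559, 1333 and 2229 FPKM at 0 h, a log2 fold change of -2.21 ± 0.79 (SE, adjusted p = 0.0388) (limma). The call was lost without filtering, without 0 h replicate 1 or 3 and without 48 h replicate 1, with limma adjusted p from 0.0803 to 0.182. In B73 the log2 fold change of this gene was -0.65 ± 0.79 (SE, adjusted p = 0.584) (limma). The opposite direction was taken by Lhca6, which in Arabidopsis helps join photosystem I to the NDH complex of cyclic electron flow. Its gene Zm00001d005814 had 267, 513 and 340.0 FPKM in the mutant at 48 h, against 129.6, 36.7 and 115 FPKM at 0 h. B73 held 354, 228 and 172 FPKM at 48 h, against 62.0, 107 and 372 FPKM at 0 h. The log2 fold change was 2.12 ± 0.77 (SE, adjusted p = 0.0415) in the mutant and 0.82 ± 0.77 (SE, adjusted p = 0.469) in B73 (limma). The mutant rise lost its call under library-total scaling, under quantile normalization, without filtering and without any of 5 of the 6 mutant libraries. Of 9 photosystem I antenna members, 2 fell and 1 rose in the mutant, beside 4164 lower and 4274 higher of 23141 genes tested. None passed in B73, where 23.2% of all genes passed. There 1 member of this class had an unadjusted p under 0.05 and limma-voom called none.

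The core parts of both complexes showed few calls. None of the 15 photosystem I subunits passed in either genotype at 48 h by limma or limma-voom, and 0 had an unadjusted p under 0.05. Limma called 36.5% of all genes in the mutant and 23.2% in B73. Under the deposited scaling their median log2 fold change was 0.51 in the mutant and 0.27 in B73. Their mean share of recovered reads went the other way, from 1.83% at 0 h to 1.37% at 48 h in the mutant and from 1.95% to 1.44% in B73. The direction of this small shift thus depends on the scaling. PsaD, the stromal subunit that docks ferredoxin (Zm00001d034543), had 3471, 4411 and 3506 FPKM in the mutant at 48 h, against 2666, 1121 and 2933 FPKM at 0 h, with a 95% interval of the log2 fold change of -0.62 to 2.37. PsaH (Zm00001d038984), a subunit at the site where the mobile antenna can bind, had a log2 fold change of 0.75 ± 0.69 (SE, adjusted p = 0.417) in the mutant and 0.52 ± 0.69 (SE, adjusted p = 0.621) in B73 (limma). PsaK (Zm00001d018797) had 0.84 ± 0.77 (SE, adjusted p = 0.414) in the mutant and 0.75 ± 0.77 (SE, adjusted p = 0.516) in B73 (limma).

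The same held for the electron carrier and the oxygen-evolving complex. Plastocyanin (Zm00001d035859) had 4162, 5244 and 3845 FPKM in the mutant at 48 h, against 2889, 1824 and 3031 FPKM at 0 h. The B73 leaves had 4842, 3085 and 3419 FPKM at 48 h, against 2001, 2712 and 5977 FPKM at 0 h. Its log2 fold change was 0.80 ± 0.53 (SE, adjusted p = 0.249) in the mutant and 0.22 ± 0.53 (SE, adjusted p = 0.799) in B73 (limma). PsbO, the manganese-stabilising protein (Zm00001d036535), had a log2 fold change of -0.64 ± 0.53 (SE, adjusted p = 0.359) in the mutant and 0.057 ± 0.53 (SE, adjusted p = 0.954) in B73 (limma). None of 6 oxygen-evolving members passed by limma or limma-voom, where limma called 36.5% of all genes in the mutant and 23.2% in B73. Of the 6, 1, the less abundant PsbO gene Zm00001d014564, had an unadjusted p under 0.05 in each genotype.

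Of the 6 photosystem II subunits 0 passed in B73 by limma or limma-voom, and 3 had an unadjusted p under 0.05 there. Limma called 23.2% of all genes in B73. In the mutant 1 of the 6 fell, beside 4164 lower of 23141 genes tested. This was the less abundant PsbW gene, Zm00001d010715, for a small subunit of the photosystem II supercomplex. It had 14.4, 30.1 and 81.5 FPKM in the mutant at 48 h, against 146, 98.7 and 143 FPKM at 0 h, a log2 fold change of -1.92 ± 0.59 (SE, adjusted p = 0.0189) (limma). Leaving out 0 h replicate 1 or 3 or 48 h replicate 1 or 2 ended the call, with limma adjusted p from 0.0522 to 0.0986. The B73 log2 fold change was -1.28 ± 0.59 (SE, adjusted p = 0.124) (limma). PsbR had 4425, 6776 and 4927 FPKM in the mutant at 48 h, against 3375, 2647 and 3223 FPKM at 0 h. In B73 leaves there were 5106, 2479.9 and 6193 FPKM at 48 h, against 2650.2, 3097 and 5089.9 FPKM at 0 h. Its log2 fold change was 0.79 ± 0.49 (SE, adjusted p = 0.223) in the mutant and 0.30 ± 0.49 (SE, adjusted p = 0.693) in B73 (limma). Of the members called in the mutant and not in B73, none passed the test of a different response at 48 h (limma). Over all members 1, PSA2 (Zm00001d031738), had an unadjusted p under 0.05 there, and limma-voom called none.

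**Figure D4:**
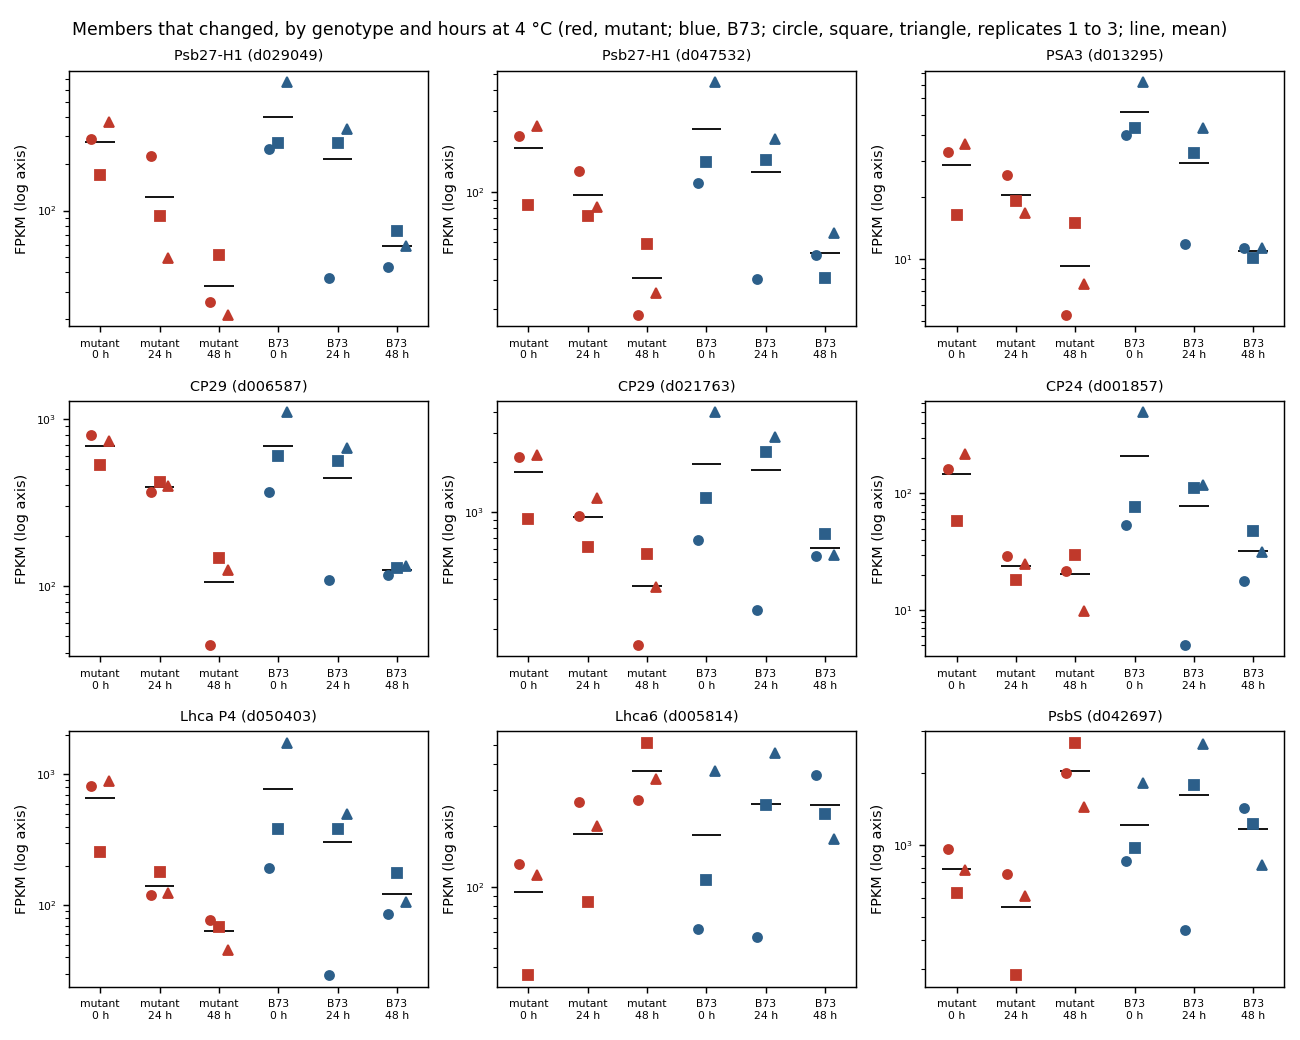
FPKM in each library (log axes) of 9 members that passed in at least 1 comparison between times, mutant groups left of B73 groups, with times from 0 to 48 h and the mean of 3 libraries as a line. Both Psb27-H1 genes, PSA3 and CP29 Zm00001d006587 lie lower at 48 h than at 0 h in both lines, and PsbS is high in the mutant at 48 h.

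At 24 h few members had passed. In the mutant at 24 h against 0 h 1 member was higher, the psbA copy Zm00001d000417, and 0 lower (limma), where 3.76% of all genes were higher and 5.82% lower. There 5 members had an unadjusted p under 0.05. In B73 6 were higher, all plastid-type copies, and 0 lower, where 5.26% were higher and 4.09% lower. Among them Zm00001d018163, Zm00001d000272 and an unannotated psbA model met the level requirement through libraries at 24 or 48 h. They could show little but a rise, so this B73 count is a description. The B73 count was 2 without 24 h replicate 2 and 3 without 24 h replicate 3, and the mutant count was 2 without 24 h replicate 3. Among the 68 other members the strongest fall in the mutant at 24 h was that of CP24 Zm00001d001857. It had 29.3, 18.01 and 25.0 FPKM at 24 h, a log2 fold change of -2.38 ± 0.99 (SE, adjusted p = 0.14) (limma), which did not pass.

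Between 24 and 48 h, 1 member was higher and 3 were lower in the mutant, where 13.5% of all genes were higher and 8.95% lower. The member that rose was PsbS (Zm00001d042697, chromosome 3), the photosystem II protein that switches on heat dissipation of excess light. It had 2003, 2691 and 1437 FPKM in the mutant at 48 h, against 752, 284 and 611 FPKM at 24 h. Its log2 fold change was 1.96 ± 0.60 (SE, adjusted p = 0.0301) (limma). At 0 h the mutant had 961, 630.2 and 781 FPKM. The PsbS levels in B73 were 853, 967 and 1819 FPKM at 0 h, 439, 1780.2 and 2654 FPKM at 24 h and 1436, 1229 and 822 FPKM at 48 h. CP29 Zm00001d006587 fell with a log2 fold change of -2.06 ± 0.61 (SE, adjusted p = 0.0251) and APO1 with -0.93 ± 0.25 (SE, adjusted p = 0.0147) (limma). The unannotated HCF136-like model fell at a level under 2.4 FPKM in every library, at 0 FPKM in all 3 mutant libraries at 48 h. It reached 1 FPKM in 3 libraries, 2 of them at 24 h in the mutant, so it is a member through the group it is set against and its call is a description. The PsbS call was also lost without filtering, under library-total scaling, without 24 h replicate 2 and without 48 h replicate 1 or 2. None of these 4 members passed when the 6 mutant libraries of those times were fitted alone. The count of 4 was 1 without mutant 24 h replicate 2 and 0 without 48 h replicate 1. It was also 0 without the 4 libraries whose description names 0 h. In B73 0 members passed between 24 and 48 h by limma, and 0 by limma-voom, where 3.48% of all genes did. Among the members 3 had an unadjusted p under 0.05, and without 24 h replicate 1 the limma count was 3.

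Between the mutant and B73, 1 member passed averaged over times and none passed at a single time. It was the less abundant gene for PsbY, a small membrane-spanning subunit of photosystem II. At single times 0 members passed by limma or limma-voom, where 0.212% of all genes passed at 0 h, 0.411% at 24 h and 0.333% at 48 h. Unadjusted, 1, 7 and 0 members had an unadjusted p under 0.05 at 0, 24 and 48 h. The count of members that passed at 24 h, 0 with all libraries, rose to 1 without B73 24 h replicate 1. It also rose to 1 without mutant 24 h replicate 3. Averaged over the 3 times, a comparison added after the values were seen, 1 member was lower in the mutant and 0 higher, where 0.259% of all genes were lower and 0.393% higher. For the 2 tests of a different cold response, at 24 and at 48 h, 0 members passed by limma or limma-voom, where 0.00432% and 0.00864% of all genes did. Here 2 members at 24 h and 1 at 48 h had an unadjusted p under 0.05.

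That PsbY gene, Zm00001d035135, lies on chromosome 6 from 6610861 to 6611724. It had 91.6, 63.8 and 253 FPKM in the mutant at 0 h, against 336, 408 and 1038 FPKM in B73. At 24 h it had 50.0, 43.4 and 32.7 FPKM in the mutant, against 125, 508 and 630.3 FPKM in B73. At 48 h the values were 64.2, 123 and 24.8 FPKM in the mutant, against 182, 174 and 129 FPKM in B73. At each time every mutant library lay below every B73 library. The log2 fold change was -2.21 ± 0.39 (SE, adjusted p = 0.0134) averaged over times (limma). By time it was -2.19 ± 0.68 (SE, adjusted p = 0.556) at 0 h, -3.02 ± 0.68 (SE, adjusted p = 0.0714) at 24 h and -1.44 ± 0.68 (SE, adjusted p = 0.358) at 48 h (limma). The average passed in 25 of 26 alternatives. Without the 4 mutant libraries whose description names 0 h its adjusted p was 0.127, with a log2 fold change of -2.08 (limma).

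The other PsbY gene, Zm00001d049650, did not pass between the lines at any time. It had 952, 465 and 745 FPKM in the mutant at 0 h, against 350.3, 474 and 1099.6 FPKM in B73. The share of the pair held by Zm00001d035135 was 8.78, 12.1 and 25.3% in the mutant at 0 h, against 48.9, 46.3 and 48.6% in B73. At 24 h this share was 8.43, 8.97 and 3.63% in mutant leaves, against 25.0, 40.6 and 36.9% in B73. Mutant leaves at 48 h held 10.8, 11.3 and 4.15%, against 23.5, 31.5 and 17.6% in B73. The PsbY shares did not overlap between the lines at any of the 3 times. Shares did not overlap in 2, 4 and 4 of 15 such pairs, PsbY included, at 0, 24 and 48 h. No background over other gene pairs was computed for these counts either, so nothing is read from them.

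Shares were taken in the same way for all 15 subunits with a pair of genes, as a description with no test. At 48 h against 0 h the less abundant copy held a lower share, with no overlap between groups, in 4 of 15 pairs in the mutant and in 5 of 15 in B73. It held a higher one in 0 pairs in the mutant and in 2 in B73. No background over other gene pairs was computed, so nothing is read from these counts. The pairs lower in both lines were those for CP24 and for PsaG, a small membrane subunit of photosystem I. Zm00001d001857 held 6.30, 6.59 and 9.76% of the CP24 pair in the mutant at 48 h, against 38.2, 39.0 and 34.3% at 0 h. B73 held 19.2, 10.9 and 23.5% at 48 h, against 40.9, 40.4 and 34.8% at 0 h. The share had shifted at 24 h, to 13.6, 21.1 and 10.9% in the mutant and 8.88, 17.1 and 17.7% in B73. The PsaG gene Zm00001d005996 held 17.9, 30.1 and 39.2% of its pair in the mutant at 48 h, against 44.7, 49.4 and 43.8% at 0 h. The B73 leaves had 45.0, 36.0 and 45.3% at 48 h, against 48.1, 49.6 and 47.8% at 0 h. Reads from near-identical copies can be split between them, which limits these shares.

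**Figure D5:**
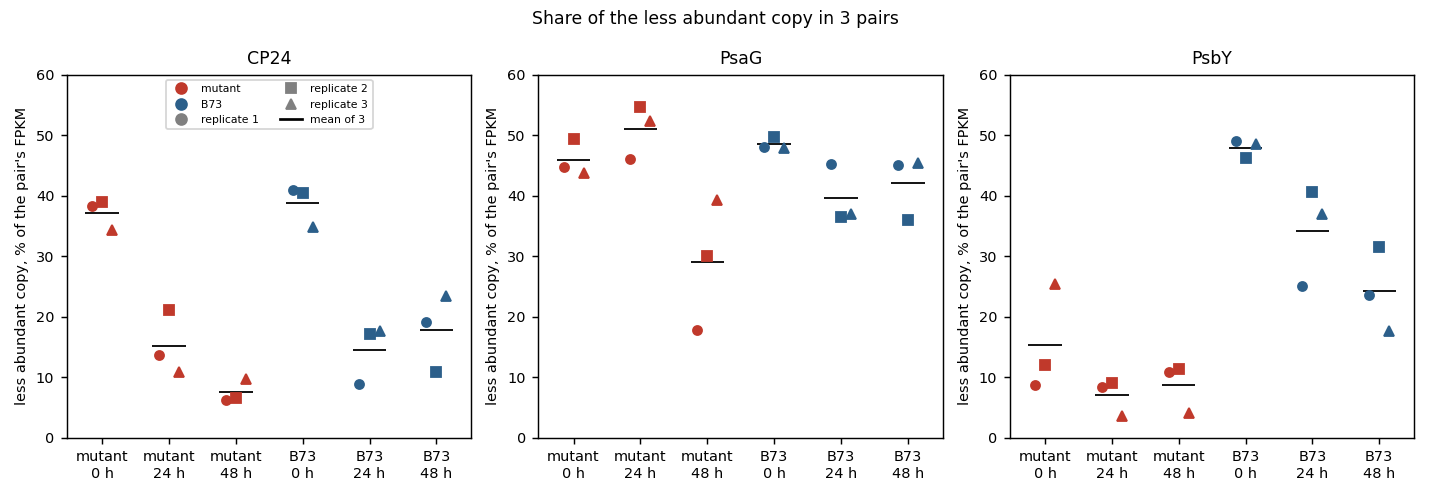
Share of a pair's FPKM held by its less abundant gene (percent) in each library for CP24, PsaG and PsbY, mutant groups left of B73 groups, with the mean of 3 libraries as a line. The CP24 share lies at 34.3% or more in all 6 libraries at 0 h and at 23.5% or less in the 12 later ones, and the PsbY share lies lower in the mutant than in B73 at each time.

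The 8 plastid-type copies rose together in the cold. They summed to 36.3, 41.6 and 32.1 FPKM in the mutant at 0 h, 356, 183 and 144 FPKM at 24 h and 1824, 406 and 171 FPKM at 48 h. In B73 the sums were 26.4, 24.5 and 41.9 FPKM at 0 h, 261, 2213 and 1182 FPKM at 24 h and 434, 1067 and 176 FPKM at 48 h. All 8 were higher in the mutant at 48 h than at 0 h and 7 of 8 in B73 (limma), and limma-voom called 5 and 4. Of the 8, 4 were under 1 FPKM in all 6 libraries at 0 h and another reached it in 2, so these 5 met the level requirement through libraries at 24 or 48 h and could show little but a rise. The counts over the copies are for that reason a description. Without 48 h replicate 1, 5 of the 8 mutant calls were lost, and without B73 0 h replicate 1 or 2, 5 of the 7 B73 calls. The reaction centre protein D1, the part of photosystem II that is damaged by light and replaced, is the product of psbA. The copy Zm00001d000417 on the unplaced contig B73V4_ctg121 had 396, 95.5 and 70.7 FPKM in the mutant at 48 h, against 7.39, 14.9 and 5.64 FPKM at 0 h. It had 147, 244 and 65.7 FPKM in B73 at 48 h, against 7.13, 5.88 and 8.92 FPKM at 0 h. The log2 fold change was 3.87 ± 0.64 (SE, adjusted p = 0.000407) in the mutant and 4.03 ± 0.64 (SE, adjusted p = 0.000693) in B73 at 48 h (limma). For 24 h against 0 h it was 3.00 ± 0.64 (SE, adjusted p = 0.0105) in the mutant and 5.30 ± 0.64 (SE, adjusted p = 0.000216) in B73 (limma).

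Another contig, B73V4_ctg134, held 4 of the copies. They were psbD (Zm00001d000260, for the D2 protein), an antisense RNA over psbC (ENSRNA049479804), psaA (Zm00001d000272, for a photosystem I core protein) and psbB (Zm00001d000282, for the inner antenna protein CP47). The psbD copy had 452, 91.6 and 35.7 FPKM in the mutant at 48 h, against 9.64, 8.61 and 10.8 FPKM at 0 h. In B73 leaves there were 96.8, 218 and 34.3 FPKM at 48 h, against 6.85, 8.25 and 12.7 FPKM at 0 h. No source used here says whether counting used the strand, so reads of the antisense RNA and of psbC cannot be told apart. The other copies, an unannotated psbA model on chromosome 10 and, on chromosome 5, Zm00001d018163 (psbB) and an unannotated psaB model, had log2 fold changes of 2.67, 3.06 and 0.94 in the mutant at 48 h.

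Transcripts of the organelle chromosomes were on average also higher at 24 and 48 h than at 0 h. Their share of recovered reads averaged 0.0627% ± 0.0366 in the mutant at 0 h, 0.0939% ± 0.0342 at 24 h and 0.112% ± 0.0432 at 48 h (SD, n = 3 each). In B73 it averaged 0.0479% ± 0.0156 at 0 h, 0.21% ± 0.143 at 24 h and 0.308% ± 0.116 at 48 h (SD, n = 3 each). Between 24 and 48 h in B73 the copies and the organelle share went opposite ways, and the mean sum of the copies was 559 FPKM at 48 h, against 1219 FPKM at 24 h. The 21 photosystem genes annotated on the plastid chromosome summed to between 3.10 and 19.1 FPKM in the mutant at 48 h, against 0.336 and 1.36 FPKM at 0 h. The B73 sums lay between 3.55 and 14.6 FPKM at 48 h, against 0.0465 and 1.69 FPKM at 0 h. Reads from the plastid genome and from copies of it elsewhere cannot be told apart at near-identical sequence, and their part in the rise was not tested.

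Genes that work beside the photosystems gave a mixed picture at 48 h against 0 h. In the photoprotection list 8 of 11 tested genes were higher and 0 lower in the mutant, and 7 higher and 3 lower in B73 (limma), beside the 36.5% and 23.2% of all genes that passed. Among the 23141 genes tested, 4164 were lower and 4274 higher in the mutant and 2431 lower and 2943 higher in B73, and every list count below is to be read against these. The median log2 fold change of the list was 1.80 in the mutant and 2.10 in B73, beside -0.032 and -0.027 for all genes. Its 13 matched genes summed to between 1028 and 1221 FPKM in the mutant at 48 h, against 293 and 403 FPKM at 0 h. In B73 the sums overlapped, between 470 and 1186 FPKM at 48 h, against 510 and 610 FPKM at 0 h. The summed level of the list therefore did not separate in B73. The genes named next were higher in both lines, and the 3 lower in B73 are not named here. Early light inducible protein2 (Zm00001d018940), a stress-induced relative of the antenna proteins, averaged 78.0 ± 25.3 FPKM in the mutant at 48 h, against 0.492 ± 0.66 FPKM at 0 h (SD, n = 3 each; limma adjusted p = 2.10e-05). It averaged 77.7 ± 40.6 FPKM in B73 at 48 h, against 6.49 ± 4.52 FPKM at 0 h (SD, n = 3 each; limma adjusted p = 0.00152). Violaxanthin de-epoxidase3 (Zm00001d011720), of the xanthophyll cycle, averaged 125 ± 27.3 FPKM in the mutant at 48 h, against 12.7 ± 5.36 FPKM at 0 h (SD, n = 3 each; limma adjusted p = 4.60e-05). It averaged 53.8 ± 28.8 FPKM in B73 at 48 h, against 11.1 ± 3.53 FPKM at 0 h (SD, n = 3 each; limma adjusted p = 0.00195).

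Of 8 genes for the import of antenna proteins into the thylakoid, 2 were lower and 0 higher in each line. The one lower in both encodes the 43 kDa protein of the chloroplast signal recognition particle, which carries antenna proteins (Zm00001d027518). This gene averaged 4.77 ± 2.82 FPKM in the mutant at 48 h, against 31.4 ± 14.4 FPKM at 0 h (SD, n = 3 each; limma adjusted p = 0.0033). It averaged 8.84 ± 4.26 FPKM in B73 at 48 h, against 41.9 ± 23.5 FPKM at 0 h (SD, n = 3 each; limma adjusted p = 0.0173). Of 25 thylakoid kinases and proteases, 7 were lower and 1 higher in the mutant and 3 lower and 1 higher in B73. STN8 (Zm00001d038485), a kinase that phosphorylates photosystem II core proteins in Arabidopsis, averaged 29.4 ± 5.45 FPKM in the mutant at 48 h, against 69.7 ± 15.2 FPKM at 0 h (SD, n = 3 each; limma adjusted p = 0.0217). It averaged 41.6 ± 9.27 FPKM in B73 at 48 h, against 135 ± 45.7 FPKM at 0 h (SD, n = 3 each; limma adjusted p = 0.00684). Of 69 electron transport partners 12 were lower and 7 higher in the mutant and 7 lower and 6 higher in B73. Of 42 GOLDEN2-like and light regulators 5 were lower and 15 higher in the mutant and 3 lower and 13 higher in B73.

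Markers of the leaf's cell types are given for comparison. Of 26 mesophyll marker genes tested, 7 were higher and 0 lower in the mutant at 48 h against 0 h, and 4 higher and 2 lower in B73. Of 10 bundle sheath markers 2 were higher and 0 lower in the mutant and 1 higher and 0 lower in B73. The mesophyll list summed to between 18408 and 34888 FPKM in the mutant at 48 h, against 7141 and 12891 FPKM at 0 h. The B73 sums lay between 11237 and 16919 FPKM at 48 h, against 6851 and 19192 FPKM at 0 h. The bundle sheath list summed to between 17829.6 and 27269 FPKM in the mutant at 48 h, against 5075 and 10089.9 FPKM at 0 h. The B73 sums lay between 12996 and 18639 FPKM at 48 h, against 4445 and 19183 FPKM at 0 h. Under the deposited scaling both lists stood higher in every mutant library at 48 h than in any at 0 h. In B73 the ranges overlapped. The total used by that scaling, over recovered reads, averaged 1.27 in the mutant at 0 h and 0.704 at 48 h. The sums were not recomputed under library totals, so the separation is given for the deposited scaling only. Of 70 dividing cell markers tested, 13 were higher and 10 lower in the mutant and 7 higher and 8 lower in B73. Their list also separated in the mutant, with sums between 2282 and 3065 FPKM at 48 h, against 1398 and 1605 FPKM at 0 h. In B73 its ranges overlapped. The epidermis and cuticle sums overlapped in the mutant and were lower in B73, between 396 and 627 FPKM at 48 h, against 1577 and 3303 FPKM at 0 h. Of 33 epidermis and cuticle markers 2 were higher and 5 lower in the mutant and 2 higher and 6 lower in B73. The part of these shifts in the members' changes was not tested.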

How the data were processed

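RNA was measured in 18 leaf libraries. Per the submitters' processing notes, the tools the authors ran were DESeq2 1.20.0, featureCounts 1.5.0-p3, HISAT2 2.0.5 and fastp; no source used here gives their settings or the genome build. The deposited values are FPKM per gene. Each FPKM was a whole multiple of 1 read, which gave 14795794 to 19070464 reads a library. The table held 0 further columns of sample values.

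Values were tested as log2(FPKM + 1) with limma 3.58.1 (R 4.3.3, moderated variance with trend, 6 group means over 18 libraries) in genes with 1 FPKM or more in 3 or more libraries, with Benjamini-Hochberg adjustment over 23141 genes and a threshold of 0.05. The fit was tested on simulated data. Members and gene lists were chosen with earlier results of these data known; the class of plastid-type copies and the comparison averaged over times came after seeing the values. Gene descriptions came from the table. The text names the most abundant members of each class and the 6 largest called changes in each direction with 5 FPKM or more and groups that do not overlap; 7 further called members were named after their values were seen. The alternatives tried were limma-voom on recovered reads, library-total scaling, quantile normalization, a replicate block, a fit without the filter, a pseudocount of 0.1, fits of only the libraries compared and leaving out each library. A fit without the 4 mutant libraries whose description names another time than their title was added after seeing the values. No sequences were used here.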

Additional observations from a re-analysis of the deposited data

How the results depend on the processing

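Of the 12 counts of called members, those of the 3 comparisons between the lines at single times and of the 2 response differences stayed at 0 under a pseudocount of 0.1, no filter, quantile normalization, library-total scaling, limma-voom and the fit of only the libraries compared, and no value of a member named here that passed changed sign. Without a filter 12 members passed in the mutant at 48 h against 0 h (5 higher, 7 lower). With quantile normalization 3 passed in the mutant at 24 h against 0 h, 10 in the mutant at 48 h against 24 h and 22 in B73 at 48 h against 0 h (8 higher, 14 lower), and in the mutant at 48 h against 0 h 8 were higher and 20 lower. With library-total scaling 8 passed in the mutant at 48 h against 24 h, 10 in B73 at 24 h against 0 h (7 higher, 3 lower) and 20 in B73 at 48 h against 0 h (7 higher, 13 lower). In the fit of only the libraries compared 0 passed in the mutant at 48 h against 24 h. Leaving out 1 library gave 8 to 17 calls in the mutant at 48 h against 0 h, 0 to 3 at 48 h against 24 h and 1 to 2 at 24 h against 0 h; 6 to 12 in B73 at 48 h against 0 h, 2 to 7 at 24 h against 0 h and 0 to 3 at 48 h against 24 h; 0 to 1 between the lines at 24 h and 1 to 2 averaged over times (2 without mutant 24 h replicate 3). Without the 4 mutant libraries whose description names 0 h, 0 passed in the mutant at 48 h against 24 h and 0 averaged over times. The causes of these shifts were not tested, save that library-total scaling lowers all genes together.

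With the replicate number as a block, 8 members were higher and 11 lower in the mutant at 48 h against 0 h, and the count of calls moved in no comparison. Deviations of same-numbered libraries correlated between -0.499 and 0.557 over 45 pairs, 14 of them over 0.1. Libraries with different numbers were not set beside them, so these values cannot decide whether the numbers pair the samples. Calls of members named here that passed under every alternative tried were those of Psb27-H1 Zm00001d029049, CP29 Zm00001d006587 and APO1 in the mutant at 48 h against 0 h, of PSA3 in B73 at 48 h against 0 h, of the psbA copy Zm00001d000417 at 24 and 48 h against 0 h in both lines, and of the psbD copy Zm00001d000260 in the mutant at 48 h. The psbA model on chromosome 10 also kept its calls at 48 h in both lines and at 24 h in B73. It reached 1 FPKM in 14 libraries, only 2 of them at 0 h. It is thus a member through libraries where it is high, and its calls are a description. Each group had 3 libraries, and these genes moved together within several groups of both lines. For a member that did not pass, a change of a size inside its interval is therefore not excluded.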
